A study of Homo sapiens with 8 samples.

Results

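Matricellular proteins are secreted into the extracellular matrix, where they act on how cells attach and signal more than on how the matrix holds together. SPARC binds collagen and calcium and is known as an anti-adhesive protein. SMOC1, SMOC2 and SPOCK1 (testican-1) carry the same kind of calcium-binding domain. Tenascins (TNC and TNXB), thrombospondin-1 (THBS1), the CCN protein CYR61 and fibronectin (FN1) belong to other families that cells use to set adhesion, migration and growth factor signaling. These 9 genes, of 36337 gene names on the array, are described here in FT293 cells. They were selected on their function and on earlier results from the same arrays, in which the signals of several of them differed between lines, so their values below are a description and carry no test. The members are all probes that the array assigns to these gene names, 17 probes among 50599, and each probe was read apart from the others. In all, 14 of the 17 probes, from 8 of the 9 genes, were well above background on each of the 2 arrays of some line. FN1 was the gene without such a probe.

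FT293 cells are HEK293 human embryonic kidney cells in which Flp recombinase has placed a transgene at a single genomic site (the Flp-In T-REx system), so that tetracycline switches it on. The 4 lines expressed GFP alone or GFP fused to HuR, TIA1 or TIAR, and RNA was taken 3 days after tetracycline. Whether a line is 1 clone or a pool is not given in the sources used here. HuR, TIA1 and TIAR bind U-rich and AU-rich stretches of RNA and act on splicing, stability and translation, and the comparisons ask how RNA levels differ when each is in excess. Each line has 2 one-colour arrays, named replicate 1 and replicate 2. The labels of TIA1 2 conflict, since its title gives GFP-TIA1 and its source name GFP-TIA2, and it was taken as TIA1 by its title. The labels do not say whether these came from separate cultures, so the spread between them may be technical. All signals are log2 values relative to the 75th percentile of the array, a scale on which 0 is a bright probe and values near -6 lie at the limit of detection. Since probes differ in how well they hybridize, levels were compared between lines and not between probes. In a bulk sample, fewer cells that express a gene and less of its RNA per cell cannot be told apart.

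The GFP 1 array stood apart from the others. On it 86.0% of all probes were well above background, against 53.2% to 58.5% on the other 7 arrays, and its mean local background was 90.0 against 37.4 to 43.5. Among probes above background on both arrays of a line, 15.8% differed at least 2-fold between the GFP arrays, and 0.455% to 1.45% in the other lines. Values against GFP are therefore given with both GFP arrays and with GFP 2 alone. Of the probes for the proteins expressed, the TIAL1 probe A_23_P161488 (TIAL1 is the gene of TIAR) read 4.87 and 4.98 in TIAR-expressing cells and 1.63 to 2.52 on the other 6 arrays. The other TIAL1 probe and the probes of TIA1 and ELAVL1, the gene of HuR, were not highest in the line that expresses the protein, and whether they lie in the transgenes was not tested. The TIA1 probe A_24_P405430 had means of 0.06 in GFP, 0.01 in HuR, -0.97 in TIA1 and -1.56 in TIAR. On the TIA1 probe A_23_P90845 they were -0.53, -0.58, -1.10 and -1.13. The paper reports that ectopic TIA1 or TIAR depleted the endogenous TIA proteins. The part of this in the probe values was not tested. The HEK293 markers LIN28B, PAX2 and NEFL had probes well above background on all 8 arrays, as did NEFM on 7. The summed processed signal of blood cell markers (PTPRC, CD3E) was 103 to 163 on 7 arrays and 4012 on GFP 1, and that of endothelial markers (PECAM1, CDH5) was 77.3 to 224 and 385. Of the 4012, the PTPRC probe A_33_P3364808 alone gave 3535, while the other PTPRC probes read 7.65 to 88.4 on GFP 1. On the slide, the GFP and TIA1 arrays lay in one row and the HuR and TIAR arrays in the other, so slide row and line cannot be told apart when lines from different rows are compared.

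The probes of 2 genes show best which part of an RNA was measured. The 4 TNXB probes below lie in the order of their position in the transcript NM_019105, from base 7953 to base 12860, on the minus strand of chromosome 6 (hg19). Their sequences are given as on the array, 5′ to 3′, and the capitals mark the longest stretch, 22 bases, that the first 2 of them share.

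TNXB A_24_P307135, chr6:32025849-32025908: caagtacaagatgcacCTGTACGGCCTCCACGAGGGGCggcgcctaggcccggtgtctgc

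TNXB A_33_P3364571, chr6:32017048-32017107: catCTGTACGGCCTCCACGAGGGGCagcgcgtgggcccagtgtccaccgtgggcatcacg

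TNXB A_33_P3364582, chr6:32010534-32010593: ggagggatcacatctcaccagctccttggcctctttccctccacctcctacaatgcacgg

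TNXB A_33_P3381338, chr6:32009137-32009196: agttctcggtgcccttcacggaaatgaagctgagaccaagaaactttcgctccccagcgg

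Aligned at that stretch, the first 2 probes overlap by 47 bases, of which 40 are equal, so each may also bind RNA of the other position. Tenascin-X is built largely of repeated fibronectin type III domains. The longest stretch that the last 2 probes share with any other of the 4 is 7 bases for A_33_P3364582 and 5 for A_33_P3381338. The files list these last 2, and the fifth probe A_23_P156708 (NM_032470, chr6:32008964-32009022), also under NR_001284, the transcript of the pseudogene TNXA. Their signal can therefore include TNXA RNA. The 3′ end of TNXB also overlaps CYP21A2 on the opposite strand. For SMOC1, the probe within transcript NM_022137 at base 1512, on the plus strand, is shown because it ordered the lines differently from the SMOC1 probe further 3′.

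SMOC1 A_33_P3333603, chr14:70490104-70490163: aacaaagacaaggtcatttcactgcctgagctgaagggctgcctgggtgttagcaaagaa

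Each of the 5 sequences printed here reads through without a stop codon in at least 1 forward frame. AU-rich elements were looked for as the motif ATTTA on the printed strand of the probes alone. None of the 17 member probes holds it, against 7.79% of all 50599 probes. The motif TTTTT occurs in 2 of the 17, SPOCK1 A_24_P354689 and THBS1 A_24_P142118, and in 10.6% of all probes. These letters were searched in the 60 bases of each probe and nowhere else in the transcripts.

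SPARC had the widest range of line means among the main probes of the members, a main probe being the one with the highest mean signal of a gene. Its single probe (A_33_P3382924, NM_003118, chr5:151041040-151041099) gave processed signals of 625 and 516 on the GFP arrays, 237 and 247 on the TIA1 arrays, 29.6 and 27.3 on the HuR arrays and 28.8 and 31.2 on the TIAR arrays. On the log2 scale these are -1.38 and -1.37 in GFP, -2.44 and -2.28 in TIA1, -5.72 and -5.93 in HuR, and -5.60 and -5.39 in TIAR. SPARC was thus high in GFP- and TIA1-expressing cells and near the limit of detection in HuR- and TIAR-expressing cells, and no arrays of any 2 lines overlapped. HuR 2 was the one array on which it was not well above background. The difference between TIA1 and HuR was 3.47 (log2, standard error 0.12), and that between TIAR and TIA1 was -3.13 (standard error 0.14). Without each array in turn the latter lay between -3.24 and -3.03. From TIAR to HuR the means differed by 0.33 (standard error 0.14).

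How large SPARC's difference is depends on how the signal near background is treated. The TIA1 minus HuR difference was 3.02 after quantile normalization, 2.13 after normexp background correction and 1.75 in the authors' log2 values. The TIAR minus HuR difference was 0.38 after normexp and -0.03 after quantile normalization, so the order of these 2 lines is not settled. Along the slide, SPARC was high in the row with GFP and TIA1 and low in the row with HuR and TIAR. The part of the slide row in the SPARC values was not tested. Fibroblasts are rich in SPARC. Of 5 probes for the fibroblast markers DCN, LUM, COL1A2 and PDGFRB, 2 were well above background on each HuR, TIA1 and TIAR array, 3 on GFP 1 and none on GFP 2. Their summed processed signal was 591 to 604 in HuR, 576 to 740.5 in TIAR, 195 to 245 in TIA1 and 53.7 to 284 in GFP. LUM made up most of these sums in HuR and TIAR. DCN (A_23_P64873) had means of -4.49 in HuR, -4.12 in TIA1 and -3.03 in TIAR. COL1A2 was well above background on GFP 1 alone and PDGFRB on no array. The part of such cells in the SPARC values was not tested.

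**Figure D1:**
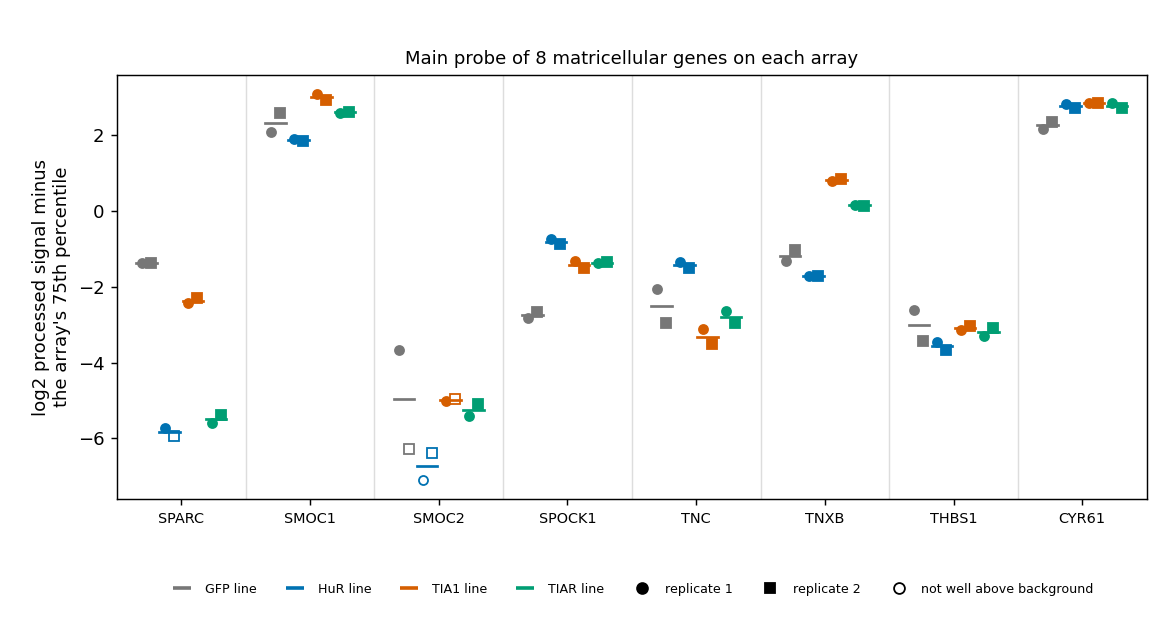
Log2 processed signal relative to the array's 75th percentile (vertical axis) for the main probe of each of 8 genes, by line. Points are single arrays, open where the probe was not well above background, and bars are line means of 2 arrays; levels cannot be compared between genes. SPARC lies at -1.38 and -1.37 in GFP and at -2.44 and -2.28 in TIA1 but at -5.39 or lower in HuR and TIAR, while CYR61 stays between 2.17 and 2.85 on all arrays.

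SMOC1 is a secreted relative of SPARC that antagonizes BMP signaling. Its main probe (A_24_P150466, NM_001034852, chr14:70498782-70498841) read 1.89 and 1.84 in HuR, 3.08 and 2.94 in TIA1, 2.59 and 2.63 in TIAR, and 2.09 and 2.58 in GFP. HuR was lowest on this probe and TIA1 highest, and no 2 lines overlapped. The probe printed above read -1.03 and -1.06 in HuR, 0.05 and 0.50 in TIA1, 0.72 and 0.80 in TIAR, and 0.18 and 0.12 in GFP. Here HuR was again lowest, but TIAR was highest and the TIA1 arrays spanned those of GFP. From HuR to TIA1 the means differed by 1.15 (log2, standard error 0.10) on the main probe and 1.32 (standard error 0.18) on the other. From HuR to TIAR they differed by 0.75 (standard error 0.09) and 1.81 (standard error 0.10). Between TIAR and TIA1 the probes went opposite ways, -0.40 (standard error 0.12) on the main probe and 0.48 (standard error 0.19) on the other.

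SMOC2, the closest relative of SMOC1, was dim. Its probe A_23_P70307 (NM_022138, chr6:169068504-169068563) was well above background on both arrays in TIAR only, at -5.40 and -5.10. It was so on neither HuR array. TIAR was 1.71-fold higher than HuR when each HuR array is put at its dimmest signal still well above background, which is not a strict lower bound. The TIAR minus HuR difference shrank from 1.49 to 0.59 (log2) under normexp. In TIA1 it read -5.02 and -4.95, the first of them well above background, and in GFP -3.66 and -6.28, again only the first. The other SMOC2 probe (A_33_P3351416) was well above background on GFP 1 alone. SPOCK1, a proteoglycan with a SPARC-like domain, was lowest in GFP. Its probe (A_24_P354689, NM_004598, chr5:136311187-136311246) read -2.81 and -2.66 in GFP, -0.74 and -0.88 in HuR, -1.31 and -1.51 in TIA1, and -1.37 and -1.34 in TIAR. All arrays of the 3 other lines lay above both GFP arrays, HuR was highest, and TIA1 and TIAR overlapped. SPOCK1 in HuR minus GFP was 1.92 (log2, standard error 0.17), and 1.85 against GFP 2 alone. SPARC and SPOCK1 thus ordered HuR and GFP in opposite ways.

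Tenascin-C, an adhesion-modulating glycoprotein of growing and healing tissue, had its highest RNA signal in HuR-expressing cells. The TNC probe (A_23_P157865, NM_002160, chr9:117783310-117783369) read -1.34 and -1.50 in HuR, -3.12 and -3.51 in TIA1, -2.64 and -2.95 in TIAR, and -2.06 and -2.96 in GFP. Both HuR arrays lay above all others, both TIA1 arrays lay below all others, and GFP and TIAR overlapped. Its difference was -1.90 (log2, standard error 0.17) for TIA1 minus HuR and -1.38 (standard error 0.15) for TIAR minus HuR. With GFP 2 alone, HuR minus GFP was 1.55, against 1.09 with both GFP arrays.

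TNXB, which encodes tenascin-X of connective tissue, went the other way, and its probes differed among themselves. The main probe A_23_P156708 read -1.71 and -1.72 in HuR, 0.80 and 0.85 in TIA1, 0.17 and 0.15 in TIAR, and -1.32 and -1.03 in GFP. All lines were apart, in the order TIA1, TIAR, GFP and HuR. TIA1 minus HuR was 2.54 (log2, standard error 0.09) and TIAR minus HuR 1.87 (standard error 0.09). The probe A_33_P3381338, next to it on the 5′ side, gave the same order, with -2.66 and -2.90 in HuR, -0.69 and -0.54 in TIA1, -1.32 and -1.14 in TIAR, and -1.73 and -2.12 in GFP. Its differences from HuR were 2.16 (standard error 0.13) in TIA1 and 1.55 (standard error 0.14) in TIAR.

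The next TNXB probe toward the 5′ end, A_33_P3364582, was nearly flat. It read -0.68 and -0.76 in HuR, -0.46 and -0.49 in TIA1, -0.41 and -0.37 in TIAR, and -0.55 and -0.63 in GFP, a range of line means of 0.33. All 3 of these probes are listed under TNXA too, so the shared listing alone does not separate the flat probe from the other 2. The pair of repeat probes was near background. A_24_P307135 read -4.65 and -4.38 in TIA1 and -4.78 and -5.06 in TIAR, and of its HuR arrays, at -5.80 and -5.34, the second was well above background. A_33_P3364571 lay between -5.61 and -4.49 on the HuR, TIA1 and TIAR arrays, which overlapped. On both probes GFP 1 was highest, at -3.76 and -4.05, and GFP 2 lowest, at -7.27 and -7.11. TIA1 minus HuR on A_24_P307135 was 1.06, but 0.73 after quantile normalization, 0.55 under normexp and 0.20 in the authors' values. The sixth probe (A_24_P911362, listed for ENST00000427181, chr6:32082814-32082873) was well above background on GFP 1 alone.

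**Figure D2:**
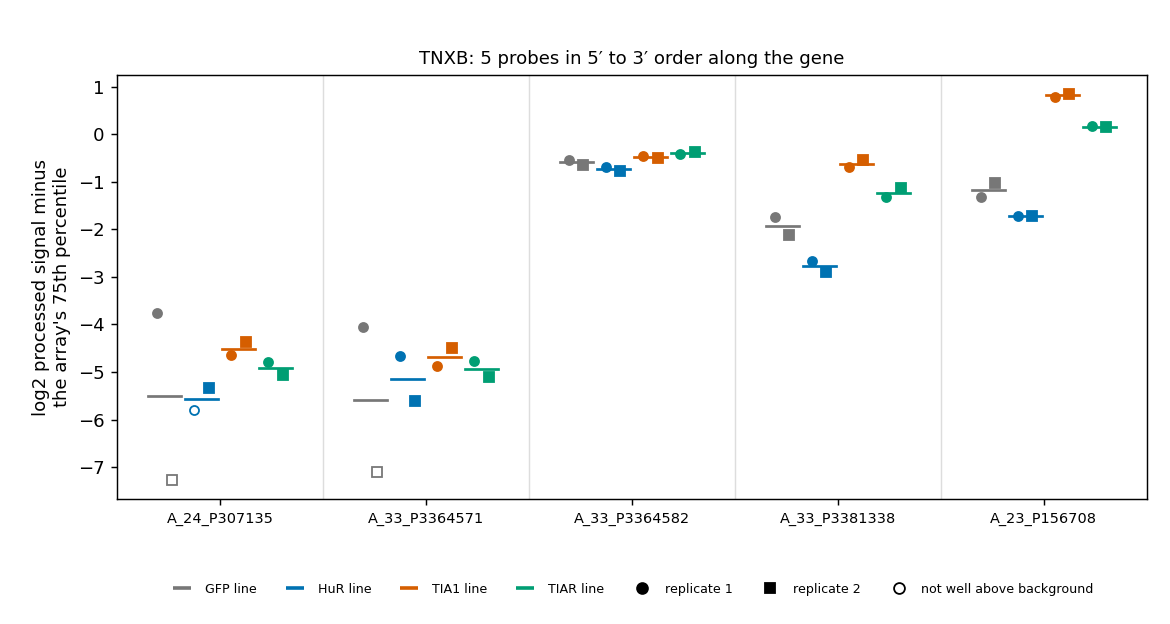
Log2 processed signal relative to the array's 75th percentile (vertical axis) for 5 TNXB probes, arranged 5′ to 3′, by line. Points are single arrays, open where not well above background, and bars are line means of 2 arrays. The 2 probes nearest the 3′ end run from HuR, lowest, to TIA1, highest, while A_33_P3364582 has line means within 0.33 of each other.

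Thrombospondin-1, a secreted inhibitor of blood vessel growth and an activator of TGF-beta, differed little. Its main probe (A_24_P142118, NM_003246, chr15:39888831-39888890) read -3.45 and -3.66 in HuR, -3.13 and -3.02 in TIA1, -3.30 and -3.08 in TIAR, and -2.61 and -3.42 in GFP. HuR lay below the other lines and these overlapped. TIA1 minus HuR was 0.48 (log2, standard error 0.12) and TIAR minus HuR 0.36 (standard error 0.14). On the second probe (A_33_P3415820, chr15:39874546-39874605) GFP 1 read -1.93 and the other 7 arrays between -4.97 and -4.58, so its GFP mean rests on that array. CYR61, an adhesive CCN protein and a target of YAP, had the narrowest range of line means without GFP among the main probes. Its probe (A_23_P46429, NM_001554, chr1:86048953-86049012) read 2.81 and 2.71 in HuR, 2.84 and 2.84 in TIA1, 2.85 and 2.71 in TIAR, and 2.17 and 2.35 in GFP. Both GFP arrays lay below the others, which differed by at most 0.08 between line means. TIA1 minus GFP was 0.58 (standard error 0.19). The FN1 probe (A_24_P334130, NM_054034, within chr2:216288217-216288895, which crosses an exon junction) was well above background on GFP 1 and TIAR 2 only, so no level of FN1 was compared.

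In each comparison, limma was fitted over every probe that both arrays of either line measured well above background. A probe was called when the lines differed 2-fold or more and its p, adjusted by Benjamini-Hochberg, was under 0.05. For TIA1- versus HuR-expressing cells, 6 of 13 member probes tested were called higher in TIA1, beside 8.5% of all 28743 probes, and 1 was called lower, beside 4.9%. The 6 were the SPARC probe, both SMOC1 probes and the TNXB probes A_23_P156708, A_33_P3381338 and A_24_P307135, and the lower one was TNC. The SPARC probe dropped out when every compared array had to be well above background, since HuR 2 was not. The call of A_24_P307135 was lost under normexp, quantile normalization, the authors' values, both other filters on dim probes and all 8 arrays in one fit, and without HuR 1 or TIA1 2. That of SMOC1 A_33_P3333603 was lost without either HuR array. For TIAR- versus HuR-expressing cells, 4 of 14 were called higher, beside 7.06% of 29099 probes, and 1 lower, beside 3.01%. These were SMOC1 A_33_P3333603, SMOC2 A_23_P70307, TNXB A_23_P156708 and TNXB A_33_P3381338, and again TNC. The SMOC2 probe, on neither HuR array well above background, entered this fit through TIAR alone, the line in which it was higher. The call of SMOC2 was lost under normexp, both other filters, all 8 arrays in one fit and without TIAR 2, and that of TNC with all 8 arrays. Without either HuR array, far fewer of all probes were called there, and of the members only SMOC1 A_33_P3333603 and TNXB A_23_P156708 were. The TNC difference stayed at -1.30 without HuR 1 and -1.46 without HuR 2. For TIAR- versus TIA1-expressing cells, 0 of 14 were called higher, beside 1.24% of 28063 probes, and 1 lower, SPARC, beside 1.1%. SPARC was not called there without any one of the 4 arrays, and far fewer of all probes were called in those fits too. The methods' paired test is the paired t-test that the paper names for comparing 2 groups in general, while its array calls came from limma. Here it has 2 pairs per comparison and, after the same adjustment, called 0 of all probes in each of them. Its counts therefore say nothing about single probes. Since values of these contrasts helped choose the genes, nothing is read from the counts.

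**Figure D3:**
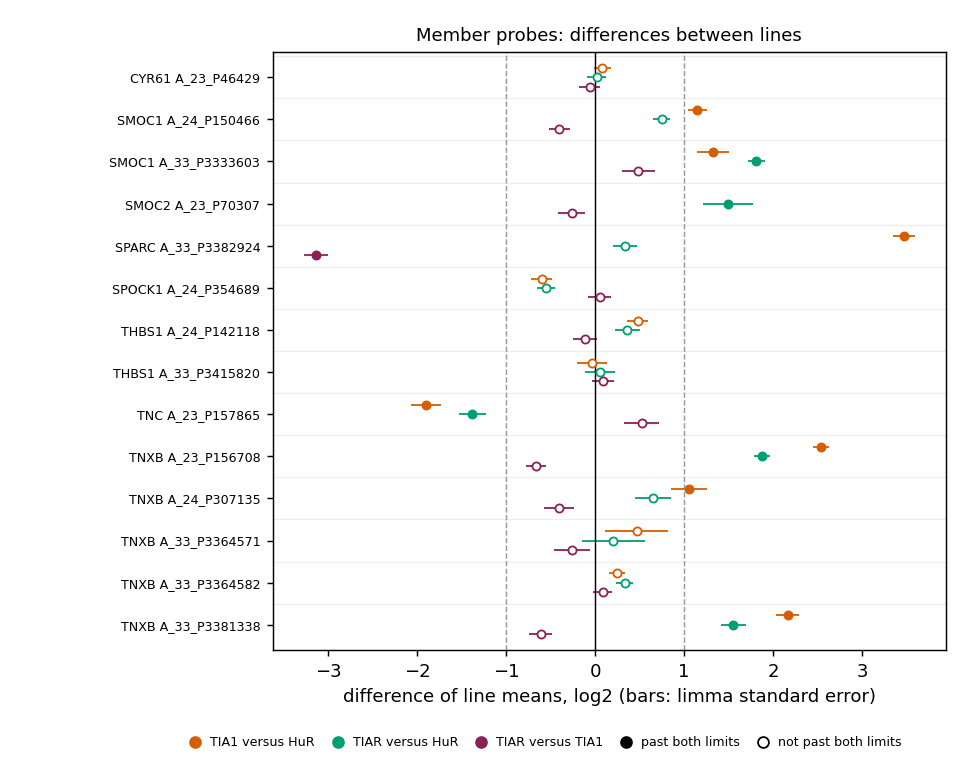
Difference of line means (horizontal axis, log2) for each member probe tested in 3 comparisons, with the limma standard error as bars; filled points are past both limits, a 2-fold difference (dashed lines) and an adjusted p under 0.05. SPARC stands at 3.47 for TIA1 versus HuR and at -3.13 for TIAR versus TIA1, and TNC lies left of -1 in both comparisons with HuR. The point of SMOC2 in TIAR versus HuR is a fitted value of a probe not well above background in HuR.

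The median difference of the member probes tested was 0.48 in TIA1 versus HuR, 0.35 in TIAR versus HuR and -0.19 in TIAR versus TIA1. Over all probes tested the medians were 0.08, 0.05 and -0.02. The members were chosen with values of these contrasts known, and several of their probes belong to TNXB alone, so nothing is read from the gap between these medians. Both comparisons with HuR share the HuR arrays, so a difference on those arrays enters both. After quantile normalization the median of all probes in TIAR versus HuR was -0.03, and after normexp that in TIA1 versus HuR was 0.16. For TIA1 minus HuR, TNXB A_23_P156708 was 2.40 and 2.41 under these alternatives, SMOC1 A_24_P150466 was 1.19 and 1.08, and TNC was -1.92 and -1.47.

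Against GFP, limma called 0 of 13 member probes in TIA1, 0 of 14 in TIAR and 0 of 12 in HuR, in either direction, beside 0% of all probes tested in all of these. At an unadjusted p under 0.05 there were 5, 5 and 7 member probes and 6078, 4686 and 4970 of all probes. The methods' paired test also called 0 of all probes. A fit with all 8 arrays called 3 member probes in each of TIA1, TIAR and HuR, beside 2539 of 28042, 1702 of 28600 and 1144 of 28871 probes. With GFP 2 as the single control, taken to vary like the other line, 5 member probes were called higher in TIA1 and 0 lower, beside 7.27% and 4.19% of all probes. They were SPOCK1 A_24_P354689 and the TNXB probes A_23_P156708, A_24_P307135, A_33_P3364571 and A_33_P3381338. On GFP 2 the probes A_24_P307135 and A_33_P3364571 were not well above background. In TIAR 4 were called higher and 1 lower, beside 4.94% and 1.63%. The higher ones were SPOCK1 and 3 of these TNXB probes, without A_33_P3381338, and the lower one was SPARC. In HuR 2 were called higher, SPOCK1 and TNC, and 2 lower, SPARC and SMOC1 A_33_P3333603, beside 4.56% and 3.91%. With GFP 1 as the single control, 3 member probes were called higher in TIA1 and 2 lower, beside 7.44% and 16.1% of all probes. The higher ones were SPOCK1, TNXB A_23_P156708 and TNXB A_33_P3381338, and the lower ones TNC and THBS1 A_33_P3415820. In TIAR 2 were called higher, SPOCK1 and TNXB A_23_P156708, beside 5.62%. There 4 were called lower, SPARC, SMOC2 A_23_P70307, THBS1 A_33_P3415820 and TNXB A_24_P307135, beside 15.6%. In HuR SPOCK1 was the 1 called higher, beside 4.28%, and 4 were called lower, SPARC, SMOC1 A_33_P3333603, THBS1 A_33_P3415820 and TNXB A_33_P3381338, beside 20%. The direction of the TNXB repeat probes thus turned with the GFP array. TIA1 minus GFP on A_24_P307135 was 2.76 against GFP 2 and -0.76 against GFP 1, and on A_33_P3364571 it was 2.44 and -0.63. SPARC in TIA1 differed from GFP by -0.98 with and -0.99 without GFP 1, just short of the 2-fold limit.

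The other genes of these families were read in the same fits. They were listed by family and not picked for how they moved. Earlier results of these arrays were known when the list was made, so their adjusted p values are descriptive. Of 23 such genes with 30 probes, 14 genes had a probe well above background on both arrays of a line. SPARCL1, SPOCK3, WISP1, WISP2, WISP3, POSTN, SPP1, IBSP and FBLN2 did not. In TIA1 versus HuR 5 of 18 probes tested rose and 1 fell, and in TIAR versus HuR 5 of 18 rose and 0 fell, next to the shares of all probes given above. The genes involved were FSTL1, FBLN1, THBS2, THBS4, TNN and NOV. Those tested with no probe called were SPOCK2, TNR, THBS3, COMP, CTGF, TGFBI, FBLN5 and EFEMP1. The THBS3 probe A_33_P3222867, on neither TIAR array well above background, was called lower in TIAR than in HuR after quantile normalization and without TIAR 1. In TIAR versus TIA1, 1 of 19 rose and 0 fell. Against GFP, limma called 0 of 18, 17 and 17 relatives in TIA1, TIAR and HuR, and the paired test called 0 of all probes. At an unadjusted p under 0.05 there were 6, 4 and 4 relatives, beside 6078 of 28042, 4686 of 28600 and 4970 of 28871 probes. Nothing is read from these counts. Median differences of this list were 0.43 in TIA1 versus HuR and 0.50 in TIAR versus HuR.

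FBLN1, which encodes fibulin-1 of basement membranes and elastic fibres, had 3 probes and all rose in both comparisons with HuR. Its main probe A_33_P3249872 read 1.20 and 1.16 in HuR, 2.53 and 2.63 in TIA1, and 2.46 and 2.60 in TIAR, without overlap between HuR and either. The fold change was 2.65 in TIA1 (limma, adjusted p = 0.00285) and 2.55 in TIAR (adjusted p = 0.00547). The calls of A_23_P433016 (adjusted p = 0.0469 in TIAR) were lost in both comparisons under normexp, quantile normalization and all 8 arrays in one fit and without either HuR array. In TIA1 the call was also lost in the authors' values. In TIAR it was also lost under the replicate block, without a filter on dim probes and without TIAR 1. Across the 3 probes the log2 differences were 1.16 to 1.67 and 1.21 to 1.70. The GFP arrays read 1.75 and 2.12 on the main probe, between HuR and the TIA lines. FSTL1, a secreted glycoprotein with a SPARC-like domain, read 4.49 and 4.56 in HuR, 5.65 and 5.64 in TIA1 and 5.39 on both TIAR arrays. It rose 2.18-fold in TIA1 (adjusted p = 0.00358), and in TIAR its log2 difference of 0.87 stayed under the 2-fold limit. NOV, a CCN protein, was the relative that fell in TIA1, with 0.85 and 0.64 in HuR and -0.79 and -0.81 in TIA1 (2.92-fold lower, adjusted p = 0.00309). In TIAR NOV read 0.12 and 0.28, between these lines, and its log2 difference of -0.55 from HuR stayed under the 2-fold limit.

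Among the thrombospondins, the THBS2 probe A_33_P3227375 was well above background on both TIA1 arrays, at -4.53 and -4.54, and on neither HuR array. It was also so on GFP 1, at -3.70, and on TIAR 1, at -5.28, but not on GFP 2 or TIAR 2. The other THBS2 probe (A_33_P3365735) was well above background on no array. On A_33_P3227375, TIA1 was 2.80-fold higher than HuR with the HuR arrays put at their limit of detection, which is not a strict lower bound. That probe entered the fit through TIA1 alone and this fold was not tested, so no p is given for its call. The THBS4 probe A_24_P260443 read -0.63 and -0.67 in TIAR, -1.78 and -1.70 in HuR, -1.88 and -2.12 in TIA1, and -0.64 and -0.45 in GFP. It rose in TIAR against HuR (2.13-fold, adjusted p = 0.00654) and against TIA1 (2.55-fold, adjusted p = 0.0288), the one relative called in that last comparison. TIAR and GFP overlapped on this probe. The other THBS4 probe (A_21_P0012834) ordered TIA1, TIAR and HuR otherwise, at -1.43, -1.83 and -2.18. TNN, which encodes tenascin-N, was 1.98-fold higher in TIAR than in HuR at signals near background, again with the HuR arrays put at their limit of detection. It entered that fit through TIAR alone, so no p is given for its call either. The TNN call was lost under normexp, quantile normalization and all 8 arrays in one fit, and that of THBS4 against HuR under quantile normalization. The THBS2 call was lost in the authors' values and with all 8 arrays. Both THBS2 and TNN dropped out when every compared array had to be well above background. Without either HuR array, FBLN1 A_23_P211631 was the one relative called in TIAR versus HuR. Without any one of its 4 arrays no relative was called in TIAR versus TIA1. Far fewer of all probes were called in these fits too.

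**Figure D4:**
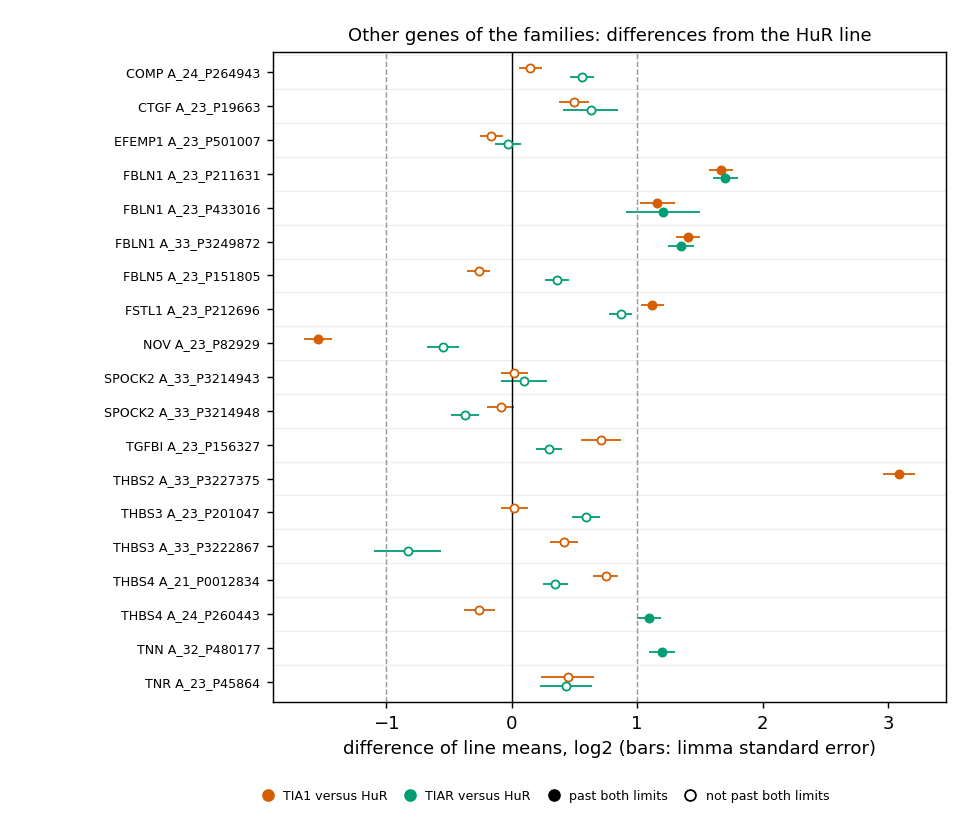
Difference of line means from the HuR line (horizontal axis, log2) for each probe tested of the other genes of the families, with the limma standard error as bars and filled points past both limits. All 3 FBLN1 probes lie right of 1 in both TIA1 and TIAR, NOV lies at -1.55 in TIA1, and EFEMP1 lies at -0.16 and -0.03; the points of THBS2 and TNN are fitted values of probes not well above background in HuR.

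For SPARC, SMOC1 and THBS1 the genes with the most similar profile over the 8 arrays were looked up by Pearson's r among 9989 probes with a range of line means of at least 1. These r values describe 4 lines with 2 arrays each on 1 slide. Nearest to SPARC were ZNF257 (r = 0.98), ZDHHC22 (0.98), SYNDIG1 (0.97), PMPCA (0.97) and SLC35D3 (0.96). ZNF257, a zinc finger gene, read -1.75 and -1.55 in GFP, -1.60 and -1.61 in TIA1, -4.87 and -5.05 in HuR, and -4.31 and -4.60 in TIAR. Nearest to SMOC1 were EGFL7, RNF208, PGF, LOC100216546 and RASIP1, all with r = 0.99. EGFL7, an endothelial growth regulator, read 1.52 and 1.44 in HuR, 2.93 and 2.95 in TIA1, 2.46 and 2.45 in TIAR, and 1.91 and 2.48 in GFP. For THBS1 the nearest were LEFTY1, XLOC_005621, CYP3A4, INTS4L1 and the unnamed probe A_23_P90470. All 5 were highest on GFP 1, the array that stood apart, with r from 0.98 to 0.99 and, without that array, 0.965 to 0.978.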

How the data were processed

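Total RNA of 4 FT293 lines was labelled with Cy3 and hybridized to 8 arrays on a single slide. The deposited scanner files hold intensity values that the authors obtained with Feature Extraction 10.7.3.1. It subtracted background and removed spatial trends array by array, and no scaling between arrays was applied. A deposited series matrix holds log2 values from the authors, in which the TIAR arrays have another distribution than the rest. It was used as an alternative for GFP, HuR and TIA1. The submitters' processing notes name limma. Here, the 62976 spots gave 50599 probes. Control and outlier spots were left out, log2 processed signals were set relative to each array's 75th percentile, and spots of a probe were averaged. Tests were made with limma 3.58.1 in R 4.3.3 and tested on simulated data. Figures and sequences used Python 3.11.15 and matplotlib 3.10.9. Probe sequences and hg19 positions are those of the scanner files. No genome was used, so exons and untranslated regions were not assigned.

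The members, the relatives and the marker lists were chosen with earlier results of these data known. Named are all members with every probe, relatives past both limits, the expressed proteins, and the 5 most similar genes of SPARC, SMOC1 and THBS1. Where neither array of a line was well above background, a fold was also computed with the dim line's signals replaced. Each was set to that array's detection limit (its dimmest signal still well above background) unless the probe was already brighter. Signals brighter than this limit can also be not well above background, as for SMOC2 A_23_P70307 on TIA1 2, at -4.95 with a limit of -5.18. Such folds are therefore not strict lower bounds. With 2 arrays per line, their number limits the precision. As alternatives, quantile normalization, normexp (offset 50), the authors' values, other filters on dim probes, all 8 arrays in one fit, the replicate number as a block, the methods' paired test and leaving out each array were run. Of arrays with the same number, the deviations from the line means correlated between -0.10 and 0.17, so the numbers were not taken as pairs.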

Additional observations from a re-analysis of the deposited data

Results flagged for a closer look

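The effects of TIAR and TIA1 were set against each other by the limma test of TIAR versus TIA1. SPARC (A_33_P3382924) differed by -3.13 on the log2 scale between TIAR and TIA1, and since it was chosen with these values known, this is a description. THBS4 (A_24_P260443) differed by 1.35 (limma, adjusted p = 0.0288), higher on both TIAR arrays than on either TIA1 array. The other THBS4 probe (A_21_P0012834) went the opposite way, by -0.40, and was not called. The calls of SPARC and of THBS4 A_24_P260443 were lost under the replicate block and without a filter on dim probes. In these settings 0 of all probes were called in this comparison. Without any one of the 4 arrays neither was called, and far fewer of all probes were called too. The difference of SPARC kept its direction.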

How the results depend on the processing

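No member probe called in a comparison with all of its arrays changed direction under the alternatives run. Against GFP, where none was called so, the TNXB repeat probes called with GFP 2 alone had the opposite sign with GFP 1 alone. The number of called member probes in TIA1 versus HuR was 7 and stayed between 5 and 8 except for 0 under the methods' paired test, and that of relatives was 6, with 0 under that test. With 2 pairs and this adjustment, that test called 0 of all probes in every comparison, so its 0 bears on no single result. In TIAR versus HuR, 5 member probes became 3 with all 8 arrays in one fit and 0 under the paired test. Calls over all probes went from 2930 to 1833 in the fit with all 8 arrays. Fewer member probes were called without HuR 1 or HuR 2, as were fewer of all probes. The 5 relatives there became 3 under normexp and with all 8 arrays, and 0 under the paired test. Quantile normalization kept 2 of them and added THBS3 A_33_P3222867, lower in TIAR. That THBS3 probe was also called lower without TIAR 1. Fewer relatives were called without HuR 1 or HuR 2, as were fewer of all probes. In TIAR versus TIA1, the 1 member and the 1 relative called both became 0 without a filter on dim probes, under the replicate block and under the paired test. These settings called 0 of all probes there. Without any one array neither was called, and far fewer of all probes were called too. Against GFP, 0 became 3 in each comparison with all 8 arrays in one fit, beside 2539, 1702 and 1144 of all probes in TIA1, TIAR and HuR. The calls on leaving out a GFP array are given above, beside the shares of all probes.

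The replicate number as a block left the members' counts in TIA1 versus HuR at 7 and in TIAR versus HuR at 5. Of the relatives it left 6 and 4, the call lost being FBLN1 A_23_P433016 in TIAR versus HuR. In TIAR versus TIA1 it called 0 of all 28063 probes, against 659 without it. Over all probes TIA1 versus HuR gave 3852 calls, 2203 under normexp and 1698 in the authors' values, and the share of calls higher in TIA1 was 63.4%, 68.5% under normexp and 52.9% under quantile normalization. In TIAR versus HuR that share was 70.1%, and 56.2% under quantile normalization. Log2 differences of member probes moved by more than the spread between replicates in 24 of 80 cases under normexp, 34 of 80 under quantile normalization and 18 of 38 in the authors' values. Probes near background set what can be compared for SPARC in HuR, SMOC2, FN1 and the TNXB repeat probes. The slide could not be used as a block, since there was 1.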
